A study of Mus musculus with 8 samples.

Results

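The pentose phosphate pathway and its neighbours that make NADPH were followed through 8 genes in liver sinusoidal endothelial cells after an iron load. The members were taken by symbol from the 23930 RefSeq targets of the assay, and each of the 8 had 1 target. They are the oxidative-branch enzymes *G6pdx*, *Pgls* and *Pgd*, the non-oxidative enzymes *Taldo1*, *Tkt* and *Rpia*, and 2 cytosolic NADPH producers outside the pathway, *Me1* and *Idh1*. One group of 4 libraries came from mice injected intravenously with iron citrate (150 µg), and the other 4 from mice injected with citrate buffer (0.05 M). All were wild-type female Balb/c mice, described as young, and each library was labelled as coming from 1 mouse. The cells were sorted 5 h after injection as CD45-dim, STAB2-high and CD146-high. Libraries were made with an amplicon kit that reads each gene through a short amplicon, so counts of different genes cannot be compared as levels. The series' title concerns control of *Bmp6* by iron in these cells independently of NRF2, the factor that drives genes of the oxidative stress response.

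The pentose phosphate pathway takes glucose 6-phosphate out of glycolysis. Its oxidative branch makes NADPH and a pentose phosphate, and its non-oxidative branch rearranges pentose phosphates back into intermediates of glycolysis. NADPH is the reducing power with which cells recycle glutathione and thioredoxin and make lipids. Endothelial cells are known to use glycolysis heavily, and several enzymes of the pathway are textbook targets of NRF2.

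Total counts on targets lay between 9010874 and 11061968 in the iron citrate libraries and between 7969520 and 11314659 in the citrate buffer libraries. The 8 members had between 90 and 2561 counts in a library. Citrate buffer replicate 1 stood apart. A set of 1286 olfactory, vomeronasal, bitter taste and keratin-associated targets was taken as mostly silent in these cells. It took 2.42% of the counts of citrate buffer replicate 1 and 0.98% of those of citrate buffer replicate 2. The share was 0.29% to 0.61% in the iron citrate libraries and 0.42% to 0.46% in the other citrate buffer libraries. Fits and ratios without citrate buffer replicate 1 are therefore given beside the results that it moves most. The 11 markers of sinusoidal endothelium summed to 25063 to 27978 CPM (counts scaled to equal library size) in iron citrate libraries and 15400 to 31115 CPM in citrate buffer libraries, with the lowest sum in citrate buffer replicate 1. *Clec4g*, a lectin of these cells, averaged 10022 ± 966 CPM in iron citrate libraries and 9476 ± 1996 CPM in citrate buffer libraries, and the nuclease *Dnase1l3* averaged 4823 ± 725 CPM in iron citrate libraries and 4662 ± 1273 CPM in citrate buffer libraries (SD, n = 4 each). *Mcam*, the gene of CD146, on which the cells were sorted, stood at 181, 165, 193 and 178 CPM in iron citrate libraries, against 204, 255, 267 and 285 CPM in citrate buffer libraries. All its iron citrate values lay below all citrate buffer values, at a log2 fold change of -0.50 (edgeR adjusted p = 0.239), and its part in the results was not tested.

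After iron citrate 3 of the 8 genes rose, none fell and 5 did not pass the test, an edgeR quasi-likelihood test adjusted over all 14601 targets tested by the Benjamini-Hochberg method at 0.05. Of all targets tested, 0.527% were called higher and 0.0274% lower. *Pgd* rose 4.39-fold, *Taldo1* 2.35-fold and *Tkt* 2.27-fold. *Me1* and *Idh1* were higher in every iron citrate library than in every citrate buffer library but did not pass. In all, 5 of the 8 genes had iron citrate values entirely above the citrate buffer values, against 6.36% of all targets tested, and none of the 8 had them entirely below, against 2.29%. The median log2 fold change of the 8 was 1.01, against -0.01 over all targets tested. The 8 were chosen with earlier results of these data known, so the shares over all targets do not make these counts a test of the set. Without citrate buffer replicate 1 the count called higher was 5, with *Me1* and *Idh1* added, against 1.50% of the targets tested in that fit. The same 5 were called by DESeq2 (2.02% of targets higher), by limma-voom (1.68%) and by edgeR without citrate buffer replicates 1 and 2 (1.35%).

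**Figure D1:**
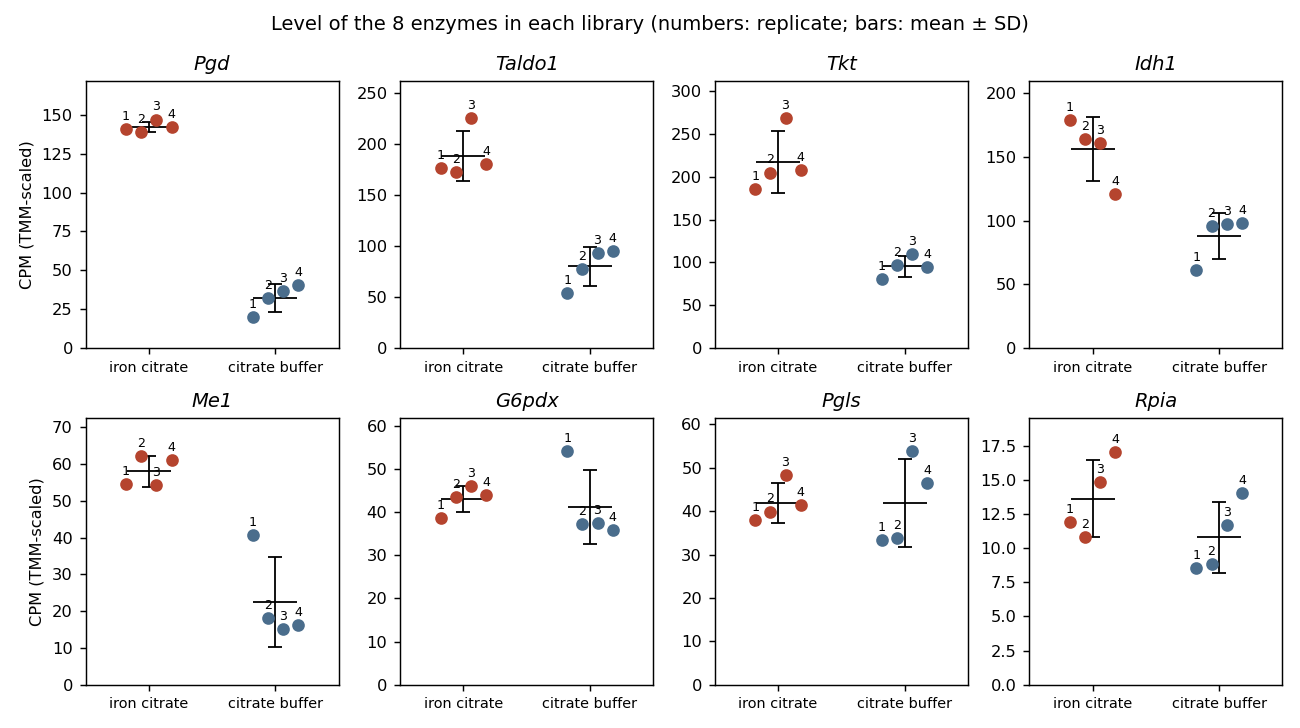
Level of each of the 8 genes in CPM scaled by TMM factors, with 1 point per library numbered by replicate, and the mean ± SD of the 4 libraries of each group. The iron citrate points of Pgd, Taldo1, Tkt, Idh1 and Me1 lie above all citrate buffer points, while those of G6pdx, Pgls and Rpia overlap them.

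In the oxidative branch the 3 enzymes act in series, and only the last of them passed the test. *G6pdx*, the X-linked gene of glucose-6-phosphate dehydrogenase, which commits glucose 6-phosphate to the pathway and makes its first NADPH, stood at 38.7, 43.4, 45.9 and 44.0 CPM in iron citrate replicates 1 to 4, against 54.1, 37.2, 37.5 and 35.8 CPM in citrate buffer replicates 1 to 4. The groups overlapped because citrate buffer replicate 1 was the highest of the 8 libraries, while the other 3 citrate buffer libraries lay below all iron citrate libraries. Its log2 fold change was 0.06 (95% interval -0.29 to 0.42, adjusted p = 0.853), which corresponds to between 0.815-fold and 1.34-fold. Without citrate buffer replicate 1 it was 0.22 (95% interval -0.05 to 0.49, edgeR adjusted p = 0.471), so a rise larger than 1.40-fold lay outside the interval in both fits. The upper end was 1.45-fold without citrate buffer replicates 1 and 2.

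*Pgls*, the lactonase that opens the product of the first step, stood at 37.9, 39.9, 48.4 and 41.3 CPM in iron citrate libraries, against 33.3, 33.7, 53.8 and 46.5 CPM in citrate buffer libraries. The citrate buffer libraries held both the lowest and the highest value. The means were 41.9 ± 4.58 and 41.8 ± 10.1 CPM, and the log2 fold change was 0.00 (95% interval -0.41 to 0.41, edgeR adjusted p = 0.994).

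*Pgd*, the gene of 6-phosphogluconate dehydrogenase, which makes the second NADPH and the pentose phosphate, stood at 141, 139, 147 and 142 CPM in iron citrate libraries, against 20.1, 32.2, 36.9 and 40.4 CPM in citrate buffer libraries. The iron citrate values were close together, and the highest citrate buffer value was far below the lowest of them. Its log2 fold change was 2.14 (SE 0.20, edgeR adjusted p = 0.000940), and without citrate buffer replicate 1 it was 1.96 (SE 0.13, adjusted p = 1.90e-07). *Pgd* passed in every alternative tried, at log2 fold changes of 1.88 to 2.26.

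In the non-oxidative branch the 2 enzymes that move carbon fragments between sugars rose by about the same factor. *Taldo1*, transaldolase, which passes 3-carbon units, stood at 176, 172, 225 and 180 CPM in iron citrate libraries, against 54.2, 77.7, 92.8 and 95.4 CPM in citrate buffer libraries. Iron citrate replicate 3 was the highest and citrate buffer replicate 1 the lowest, and the groups did not overlap. The log2 fold change was 1.23 (SE 0.19, edgeR adjusted p = 0.0168). The call was lost when iron citrate replicate 1, 2, 3 or 4 or citrate buffer replicate 2 was left out (edgeR adjusted p = 0.0669 to 0.106, at log2 fold changes of 1.14 to 1.28), and without citrate buffer replicate 1 the adjusted p was 0.000382.

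*Tkt*, transketolase, the thiamine-dependent enzyme that passes 2-carbon units, stood at 186, 205, 269 and 208 CPM in iron citrate libraries, against 81.0, 96.7, 110 and 94.2 CPM in citrate buffer libraries. Iron citrate replicate 3 was again the highest, and the groups did not overlap. The log2 fold change was 1.18 (SE 0.15, edgeR adjusted p = 0.00652), and *Tkt* passed in every alternative tried, at 1.04 to 1.26.

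*Rpia*, the isomerase that turns ribulose 5-phosphate into the ribose 5-phosphate needed for nucleotides, was the least counted of the 8. It stood at 11.9, 10.8, 14.8 and 17.0 CPM in iron citrate libraries, against 8.57, 8.85, 11.7 and 14.0 CPM in citrate buffer libraries, and the groups overlapped. Its log2 fold change was 0.34 (95% interval -0.24 to 0.93, edgeR adjusted p = 0.482), and the upper end corresponds to 1.90-fold, or 1.68-fold without citrate buffer replicate 1.

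For the 2 NADPH producers outside the pathway, the call depended on the test and its settings and on whether citrate buffer replicate 1 was included. *Me1*, the cytosolic malic enzyme that turns malate into pyruvate, stood at 54.5, 62.1, 54.4 and 61.2 CPM in iron citrate libraries, against 40.7, 18.1, 15.1 and 16.2 CPM in citrate buffer libraries. Citrate buffer replicate 1 lay apart from its own group, and still below the lowest iron citrate library. The log2 fold change was 1.36 (95% interval 0.69 to 2.03, edgeR adjusted p = 0.129), and without citrate buffer replicate 1 it was 1.81 (95% interval 1.52 to 2.11, edgeR adjusted p = 1.49e-06), or 3.52-fold. With all 8 libraries *Me1* was called by DESeq2 (adjusted p = 0.00473), by limma-voom with sample weights (1.32e-05) and by edgeR with no low-count filter (0.0322), and over all alternatives its adjusted p ran from 1.58e-07 to 0.451. Citrate buffer replicate 1 is also the library with 2.42% of its counts on gene families taken as silent. The part this has in its *Me1* value was not tested.

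*Idh1*, the cytosolic NADP-linked isocitrate dehydrogenase, stood at 179, 164, 161 and 121 CPM in iron citrate libraries, against 60.9, 95.4, 97.0 and 98.2 CPM in citrate buffer libraries. Here citrate buffer replicate 1 was the lowest, and the groups did not overlap. The log2 fold change was 0.83 (95% interval 0.41 to 1.24, edgeR adjusted p = 0.136), and without citrate buffer replicate 1 it was 0.69 (95% interval 0.39 to 0.98, edgeR adjusted p = 0.0171). DESeq2 and limma-voom called it with all 8 libraries, with adjusted p-values of 0.00428 and 0.00937, and over all alternatives its adjusted p ran from 0.00428 to 0.418.

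**Figure D2:**
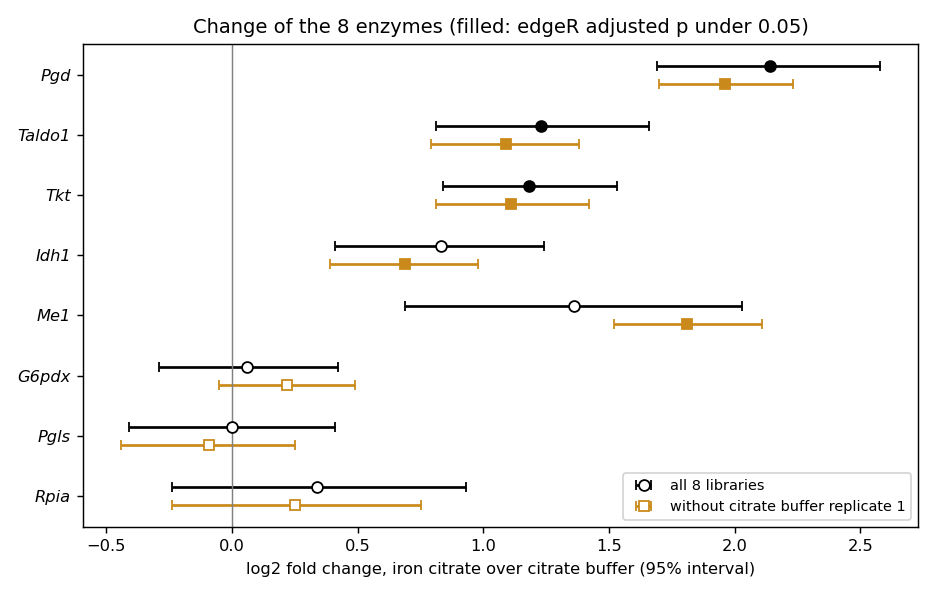
Log2 fold change of iron citrate over citrate buffer with its 95% interval, from all 8 libraries (circles) and without citrate buffer replicate 1 (squares), with filled symbols for an edgeR adjusted p under 0.05. Leaving out that library narrows the interval of Me1 and of Idh1 and both pass, while G6pdx, Pgls and Rpia have intervals across 0 in both fits.

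Ratios of 2 genes within a library do not depend on how libraries are scaled, and they test whether 1 gene changed by a different factor than its partner. For 5 pairs of related enzymes the log2 ratio of counts was compared with an exact two-sided permutation test, adjusted over the 5 pairs. The test ran over the 70 ways to choose 4 of the 8 libraries, and its smallest possible p is 0.0286. The pairs drew on members and lists chosen with earlier results of these data known, which limits these p-values as tests. *Pgd* moved away from *G6pdx*, the other dehydrogenase of the branch. Their log2 ratio was 1.86, 1.67, 1.68 and 1.69 in iron citrate libraries, against -1.42, -0.21, -0.02 and 0.18 in citrate buffer libraries. The difference was 2.10 (exact permutation p = 0.0286, adjusted p = 0.0476), or 1.74 without citrate buffer replicate 1, and all 4 iron citrate libraries lay above all citrate buffer libraries. For *Tkt* and *Taldo1* no difference was detected. Their log2 ratio averaged 0.20 ± 0.08 in iron citrate libraries and 0.28 ± 0.25 in citrate buffer libraries (SD, n = 4 each), a difference of -0.08 (exact permutation p = 0.629).

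The cytosolic enzymes *Me1* and *Idh1* also moved away from their mitochondrial counterparts. *Me2* encodes the mitochondrial malic enzyme, which works mainly with NAD, and stood between 68.2 and 84.8 CPM in iron citrate libraries and between 72.5 and 90.0 CPM in citrate buffer libraries. The log2 ratio of *Me1* to *Me2* was -0.63, -0.37, -0.50 and -0.16 in iron citrate libraries, against -0.83, -2.31, -2.56 and -2.37 in citrate buffer libraries, a difference of 1.60 (exact permutation p = 0.0286, adjusted p = 0.0476), or 2.00 without citrate buffer replicate 1. The groups did not overlap, and citrate buffer replicate 1 was the nearest of its group to the iron citrate libraries. *Idh2*, the mitochondrial NADP-linked isocitrate dehydrogenase, averaged 31.5 ± 2.49 CPM in iron citrate libraries and 34.4 ± 6.63 CPM in citrate buffer libraries. The log2 ratio of *Idh1* to *Idh2* was 2.39, 2.43, 2.49 and 1.87 in iron citrate libraries, against 0.47, 1.49, 1.74 and 1.66 in citrate buffer libraries, a difference of 0.95 (exact permutation p = 0.0286, adjusted p = 0.0476). Without citrate buffer replicate 1 the difference was 0.66, with groups that still did not overlap. For these 3 ratios the adjusted exact permutation p was 0.0714 to 0.0952 when iron citrate replicate 1, 2, 3 or 4 or citrate buffer replicate 1 was left out. *H6pd*, which runs the first steps of the pathway inside the endoplasmic reticulum, was at 84.1 ± 14.5 CPM in iron citrate libraries and 56.1 ± 28.9 CPM in citrate buffer libraries, and the ratio of *G6pdx* to it did not pass (difference -0.68, exact permutation p = 0.371). That difference rests on citrate buffer replicate 1, where the log2 ratio was 1.42, and it was -0.11 without that library.

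**Figure D3:**
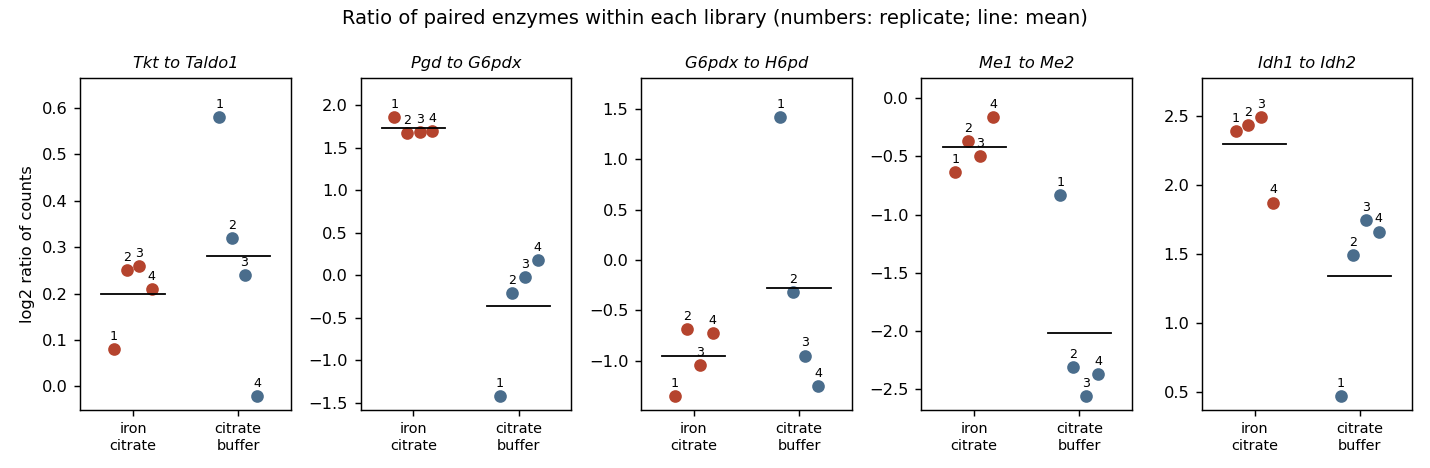
Log2 ratio of the counts of 2 enzymes within each library for 5 pairs, with 1 point per library numbered by replicate and a line at the group mean. The iron citrate points lie above all citrate buffer points for Pgd to G6pdx, Me1 to Me2 and Idh1 to Idh2, and overlap them for Tkt to Taldo1 and G6pdx to H6pd.

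The sequences near the annotated starts of these genes were read for the core of the antioxidant response element, the DNA motif through which NRF2 acts, because *Pgd*, *Taldo1* and *Tkt* rose together. RefSeq windows of GRCm38.p6, from 250 bases before to 50 after each start, were found for all 8 genes, 11 windows in all. TGACNNNGC, searched on both strands, was in 3 of these windows and in 12.4% of all 32851 windows. The 3 matches are shown in 30 bases each, with the match in capitals.
G6pdx, 57 to 49 bases before the start, reverse of the motif (chrX:74428918-74428947, minus strand): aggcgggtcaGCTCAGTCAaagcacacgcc
Me1, first start, from 6 bases before it to base 3 (chr9:86695901-86695930, minus strand): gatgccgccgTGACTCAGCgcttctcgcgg
Pgd, second start, bases 4 to 12 (chr4:149166060-149166089, minus strand): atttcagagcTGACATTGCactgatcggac
The *Me1* match also holds TGANTCA, the motif of AP-1 factors, which was in 7.8% of all windows. The second *Pgd* start falls on the first base of exon 2 of Pgd-201 in GENCODE, so its match lies within an internal exon of that transcript. *G6pdx*, which did not pass the test, has a match, and *Pgls*, *Taldo1*, *Tkt*, *Rpia* and *Idh1* have none in these windows. The windows of the first *Pgd* start and of the second *Me1* start have none either. A match is a description of letters and not a bound site, and its absence says nothing of sites further away.

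The 100 bases directly before the first starts of the 3 genes that rose are shown with GGGCGG, the GC box of Sp factors, in capitals on either strand, a motif in 24.7% of all windows of this length.
Pgd (chr4:149166706-149166805, minus strand): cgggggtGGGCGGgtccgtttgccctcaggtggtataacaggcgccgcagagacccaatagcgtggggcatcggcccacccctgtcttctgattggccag
Taldo1 (chr7:141392060-141392159, plus strand): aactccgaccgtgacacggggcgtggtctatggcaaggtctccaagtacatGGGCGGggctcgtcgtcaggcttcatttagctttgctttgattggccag
Tkt (chr14:30549031-30549130, plus strand): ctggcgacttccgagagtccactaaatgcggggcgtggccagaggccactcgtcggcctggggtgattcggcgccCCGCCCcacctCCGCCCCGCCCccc
*Pgd* and *Taldo1* held 1 GC box each and *Tkt* held 3, of which 2 share a base. *Rpia* and *Me1* also held it in the 100 bases before their first start, and all 8 genes held it in the 300-base window of their first start, against 35.7% of all such windows. The 100 bases shown were 66% G or C for *Pgd*, 57% for *Taldo1* and 74% for *Tkt*. The median over all windows of that length was 55.0%. The part of base composition in these counts was not tested.

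Of 16 other pentose phosphate genes tested, 0 rose and 0 fell by edgeR, where the share called over all targets was 0.555%, so a count of 0 in so short a list is near the background. For these genes the median log2 fold change was 0.01. Those with the highest mean count over all 8 libraries were *Pgm2*, a phosphopentomutase, at 141 ± 17.5 CPM in iron citrate libraries and 119 ± 29.0 CPM in citrate buffer libraries, and *Prps2*, which makes the ribose donor of nucleotides, at 64.9 to 90.5 CPM in iron citrate libraries and 55.0 to 95.8 CPM in citrate buffer libraries. *G6pd2*, an intronless copy of *G6pdx*, stood at 9.97, 10.9, 5.67 and 15.5 CPM in iron citrate libraries, against 46.1, 18.7, 11.2 and 8.35 CPM in citrate buffer libraries. The 2 highest of its 8 values were in the 2 citrate buffer libraries with the most counts on gene families taken as silent. Whether the amplicon reads of *G6pdx* and its copy were told apart by the counting was not tested, so both values are uncertain to that extent.

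Of 11 other enzymes tested that make NADPH or NADP, none was called, again near the background share, and their median log2 fold change was 0.03. *Nadk*, the kinase that makes NADP from NAD, averaged 187 ± 16.7 CPM in iron citrate libraries and 183 ± 30.5 CPM in citrate buffer libraries. The mitochondrial glutamate dehydrogenase *Glud1* averaged 135 ± 3.65 CPM in iron citrate libraries and 152 ± 8.71 CPM in citrate buffer libraries, with groups that did not overlap (log2 fold change -0.17, edgeR adjusted p = 0.385). Of 16 genes of glucose 6-phosphate entry and exit, none was called, likewise near that share, and the median was 0.06. *Gpi1*, which passes glucose 6-phosphate on into glycolysis, averaged 258 ± 42.1 CPM in iron citrate libraries and 173 ± 49.4 CPM in citrate buffer libraries (log2 fold change 0.58, edgeR adjusted p = 0.333). *Adpgk*, an ADP-dependent glucokinase, averaged 78.4 ± 7.75 CPM in iron citrate libraries and 63.4 ± 13.9 CPM in citrate buffer libraries. Before adjustment, 959 of all targets tested by edgeR were higher and 1168 lower with p under 0.05.

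Among enzymes that use NADPH, 5 of 20 tested rose, none fell and 15 did not pass, against 0.527% called higher and 0.0274% lower over all targets, with a median log2 fold change of 0.15. The list was chosen with earlier results of these data known, so its count beside the share over all targets is not a test of the list. These were the quinone reductase *Nqo1* (log2 fold change 4.75), the thioredoxin reductase *Txnrd1* (3.37), the biliverdin reductase *Blvrb* (2.72), the aldo-keto reductase *Akr1b8* (2.66) and the glutathione reductase *Gsr* (2.18). The edgeR adjusted p-values of these 5 lay between 2.16e-06 and 0.000324, and all 5 passed in every alternative tried. *Akr1b8* averaged 3263 ± 150 CPM in iron citrate libraries and 515 ± 59.6 CPM in citrate buffer libraries, and the groups did not overlap.

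**Figure D4:**
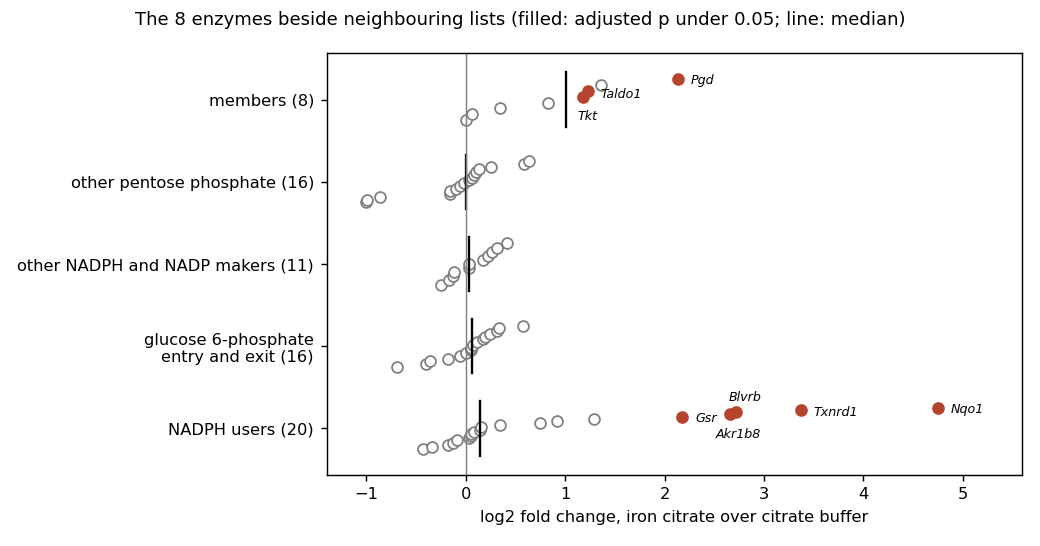
Log2 fold change of iron citrate over citrate buffer for the 8 genes and for 4 neighbouring lists, with the number tested in brackets, filled points for an edgeR adjusted p under 0.05 and a line at each median. The filled points lie among the 8 genes and the NADPH users, and the medians of the other 3 lists are 0.01, 0.03 and 0.06. The genes and lists were chosen with earlier results of these data known.

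The genes whose course over the 8 libraries came closest to that of *Pgd*, the member with the largest change, were ranked by the root mean square distance of log2 CPM centred on each gene's own mean. The first was *Gsr*, which uses NADPH to recycle glutathione, at a distance of 0.11. *Gsr* averaged 163 ± 14.2 CPM in iron citrate libraries and 36.1 ± 7.75 CPM in citrate buffer libraries. It was followed by the glutathione S-transferase *Gstm1* (0.13), the AMP deaminase *Ampd3* (0.14), *2210408F21Rik* (0.18) and the microsomal glutathione S-transferase *Mgst1* (0.18), against a median of 1.14 over all targets tested. The centring keeps the difference between the groups, so a small distance largely reflects a fold change of similar size. The log2 fold changes of these nearest genes were 2.02 to 2.31, against 2.14 for *Pgd*. The nearest of the other members was *Taldo1*, at 0.47, then *Tkt* at 0.55, and *G6pdx* lay at 1.14.

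In a bulk sort, fewer cells of a type and less RNA per cell cannot be told apart, and the sort may carry other liver cells. The 12 hepatocyte markers measured summed to 401 to 858 CPM in iron citrate libraries and 486 to 980 CPM in citrate buffer libraries, and the ranges overlapped. *Alb*, serum albumin, averaged 319 ± 107 CPM in iron citrate libraries and 458 ± 152 CPM in citrate buffer libraries, and *Ahsg*, a plasma protein, averaged 64.5 ± 27.6 CPM in iron citrate libraries and 67.8 ± 24.6 CPM in citrate buffer libraries. The 10 Kupffer cell and macrophage markers summed to 232 to 589 CPM in iron citrate libraries and 122 to 358 CPM in citrate buffer libraries, with most counts on *Vsig4* and *Cd68*. Neutrophil markers, 9 in all with most counts on *S100a9* and *Csf3r*, summed to 172 to 254 CPM in iron citrate libraries. In citrate buffer libraries they summed to 109 to 404 CPM, with a median of 115 CPM and the highest sum in replicate 1. The overlap rested on that library, and the other citrate buffer sums lay below all iron citrate sums. The 4 erythroid markers summed to 11.4 to 14.9 CPM in iron citrate libraries and 11.4 to 29.9 CPM in citrate buffer libraries, with most counts on *Slc4a1* and *Alas2*. The 8 lymphocyte markers, with most counts on *Cd3g* and *Cd3e*, summed to 784 to 878 CPM in iron citrate libraries and 676 to 1329 CPM in citrate buffer libraries. Stellate cell markers, 8 in all with most counts on *Dcn* and *Rgs5*, summed to 444 to 674 CPM in iron citrate libraries and 274 to 677 CPM in citrate buffer libraries. The 6 cholangiocyte markers, with most counts on *Spp1* and *Krt19*, summed to 88.2 to 112 CPM in iron citrate libraries and 36.8 to 103 CPM in citrate buffer libraries. All these ranges overlapped. Citrate buffer replicate 1 also had the highest erythroid and lymphocyte sums of its group, and the lowest hepatocyte, Kupffer cell and stellate cell sums. No marker of these lists was called by edgeR, and none was at 0 in all 8 libraries. Their part in the results was not tested.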

How the data were processed

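The authors deposited whole-number read counts per RefSeq target, 1 file per library. HTSeq 0.6.0 and DESeq2 1.18.1 are named in the submitters' processing notes, and the labels' protocols name the Ion AmpliSeq mouse transcriptome kit. For the aligner, the build and read filters the sources used here give no name. HTSeq's summary lines (2.15% to 4.60% of a file) were left out. Symbols were matched through RefSeq and GENCODE tables for all but 1368 of 23930 targets. The design text speaks of 5 samples per group, and 4 per group were used here.

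Counts were tested with edgeR 4.0.16 in R 4.3.3 (filterByExpr, TMM factors, robust quasi-likelihood F-test, Benjamini-Hochberg adjustment over 14601 targets, called at an adjusted p under 0.05). Standard errors and 95% intervals came from the F statistic. CPM used TMM-scaled library sizes. Fold changes are fitted values. Ratios of counts had 1 added to each count and were tested by exact permutation. Scripts ran in Python 3.11.15, and only the edgeR, DESeq2 and limma-voom fits were tried on simulated counts.

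All 8 members are described. Of the other metabolic lists the called genes, the 2 with the highest mean CPM over all libraries and 4 paralogues (*H6pd*, *G6pd2*, *Me2*, *Idh2*) are named, as are the 2 highest of each marker list, *Mcam*, chosen after its values were seen, and the 5 targets nearest to the member with the largest change. Sequences came from the RefSeq promoter table (GRCm38.p6). The members and lists were chosen with earlier results of these data known. Alternatives were other scaling factors, DESeq2 1.42.0, limma-voom (limma 3.58.1), other low-count filters, the replicate number as a block and each library left out. Pairs of libraries differed by more than sampling noise (chi-square per degree of freedom at least 8.8). Since the labels say nothing more on how independent the mice were, the spread behind each p-value may be partly technical, and amplicon reads without molecular identifiers are not independent molecules.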

Additional observations from a re-analysis of the deposited data

Results flagged for a closer look

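In 8 of 56 groups of 4 libraries, a library lay farther from the others than Dixon's test at the 95% level allows, and chance alone gives about 5% of groups. Of these, 4 concerned citrate buffer replicate 1. It was the highest citrate buffer library for *G6pdx* (54.1 CPM, next 37.5), for *Me1* (40.7 CPM, next 18.1) and for the log2 ratio of *Me1* to *Me2* (-0.83, next -2.31), and the lowest for *Idh1* (60.9 CPM, next 95.4). Its *G6pdx* and *Me1* values thus went the opposite way to its values of the other members. Those of *Pgd*, *Taldo1*, *Tkt*, *Idh1*, *Pgls* and *Rpia* were the lowest of all 8 libraries. Iron citrate replicate 3 was the highest of its group for *Taldo1* (225 CPM, next 180), iron citrate replicate 1 for *Glud1* (140 CPM, next 133) and for the log2 ratio of *Pgd* to *G6pdx* (1.86, next 1.69), and iron citrate replicate 4 was the lowest for the log2 ratio of *Idh1* to *Idh2* (1.87, next 2.39).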

How the results depend on the processing

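Counts of called targets were 365 with DESeq2, 289 with limma-voom, 281 without citrate buffer replicates 1 and 2, 43 with the replicate block and 46 to 259 with 1 library left out, against 81. Members called higher were 5 with DESeq2, with limma-voom and without citrate buffer replicates 1 and 2, and 2 to 5 with 1 library left out, against 3. The replicate block left 3 called. Same-numbered libraries, by the numbers of the sample titles, had correlations of deviations of -0.32 to 0.61, and differently numbered ones of -0.60 to 0.55. So few values cannot decide whether the numbers pair the samples. The deposited files number the citrate buffer libraries differently, and that numbering was not tried. Leaving out 1 library gave log2 fold changes of 1.09 to 1.33 for *Taldo1*, 1.22 to 1.81 for *Me1* and 0.69 to 0.93 for *Idh1*. With DESeq2, limma-voom and without citrate buffer replicates 1 and 2, *Me1* passed at 1.33, 1.79 and 1.89 and *Idh1* at 0.80, 0.74 and 0.68, and *Me1* passed at 1.39 with no low-count filter. *G6pdx* turned to -0.06 with upper-quartile factors and with library totals, which moved the median of all targets to -0.12 and -0.11, and relative to these it was 0.05 in both. *Pgls* turned to -0.03 with RLE factors, -0.10 with upper-quartile factors, -0.09 with library totals, -0.02 with DESeq2 or a mean CPM of at least 5, -0.16 with limma-voom, -0.26 without citrate buffer replicates 1 and 2 and -0.09 to 0.14 with 1 library left out. Among genes that were never called, *G6pd2* and *Idh2* turned to 0.10 and 0.07 without citrate buffer replicates 1 and 2, where *Nadk* turned to -0.16. *Idh2* was 0.03 and *Nadk* -0.06 with limma-voom, *Prps2* -0.04 with both upper-quartile factors and library totals, and *Nadk* -0.08 and -0.06 with these. With 1 library left out *Prps2* ran from -0.03 to 0.28, *Idh2* from -0.20 to 0.01 and *Nadk* from -0.04 to 0.12. The ratio differences did not pass with the replicate block (2.10 for *Pgd* to *G6pdx*, 1.60 for *Me1* to *Me2*, 0.95 for *Idh1* to *Idh2*), where the smallest possible exact p is 0.125, or without citrate buffer replicates 1 and 2 (1.65, 2.05 and 0.59), where it is 0.0667. With 1 library left out they were 1.74 to 2.28, 1.42 to 2.00 and 0.66 to 1.09, and 5 of the 8 such fits did not pass for each. The ratio of *Tkt* to *Taldo1* turned to 0.09 without citrate buffer replicates 1 and 2 and ran from -0.18 to 0.02 with 1 left out, and that of *G6pdx* to *H6pd* turned to 0.15. The cause was not tested. Counts of 90 to 185 per library limit what can be said of *Rpia*.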

Other observations

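The 100 bases before the first starts of *Pgd* and *Taldo1* end in the same 11 bases, TGATTGGCCAG, from 11 bases before each start (capitals mark the shared run, which holds a CCAAT box on the other strand). Of all 32851 windows of this length 66, from 62 genes, held this run on either strand, and 2 ended directly in it, those of *Pgd* and *Taldo1*. The run was noticed on reading both sequences. A CCAAT box was in 18.9% of all windows, and among the 8 genes in those of *Pgd* and *Taldo1* only.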
